A study of Mus musculus with 18 samples.

Results

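The comparison described here set RNA immunoprecipitated with an anti-GFP antibody (IP) against total RNA of the same homogenate (input) in the right hippocampus of PBS-injected mice. It comprised 6 of the 18 libraries of the series, 3 IP and 3 input, chosen by their labels as GFP IP or input with an intrahippocampal PBS injection. All mice were wild-type (WT) C57BL/6J males that had received 1 µL of AAV_DJ-GfaABC1D-EGFP-Rpl10a in the right CA3 region at 6 weeks of age, and each sample pooled the right hippocampi of 3 to 4 mice. The AAV control group carried the same virus without a second injection and the kainic acid (KA) group received KA after the virus, so the tag was present in every library. RNA of the AAV control group was collected 2 weeks after the virus. The KA group received KA at that time and was sampled later. Each PBS sample gave 1 IP and 1 input library, which form a pair (pairs 1, 2 and 3), and all 6 were sequenced in the same run. The input was an aliquot of the cleared homogenate that held RNA of every hippocampal cell type. The time between the PBS injection and RNA collection was not given in the sources used here.

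In translating ribosome affinity purification (TRAP), a tagged ribosomal protein is expressed in one cell type, and the tag is used to pull down ribosomes together with the mRNA they carry. The GfaABC1D fragment of the GFAP promoter drives expression mainly in astrocytes, so only ribosomes of cells that the virus reached and in which this promoter was active were tagged. Hippocampal astrocytes take up glutamate and potassium released by neurons, carry water at their endfeet, couple through gap junctions, store glycogen, synthesise serine and export cholesterol in lipoproteins. A gene used by astrocytes is expected to be more abundant in IP than in input, and a gene of neurons, microglia, oligodendrocytes or vessels less so. Values are relative shares of each library. In such bulk samples, fewer cells of a type and less RNA per cell cannot be told apart.

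Library totals were between 10505073 and 16032180 counts in IP and between 10052992 and 10766221 in input. Of 55291 gene symbols, 10401 had FPKM (fragments counted per kilobase of gene, scaled to the library total) above 1 in all 6 libraries and were tested. This filter left out genes that were nearly absent from either kind of library: 1139 symbols were above 1 in all 3 input libraries but not in all 3 IP libraries, and 1364 the reverse. In a principal component analysis, IP and input lay apart on the first component, which held 83.2% of the variance. PBS IP #3 stood apart from the other IP libraries on the second component (-32.6 against 14.6 and 17.4, 8.61% of the variance). Values without it are given where a list's number of called genes changed, or a named gene crossed an adjusted p of 0.05.

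IP and input differed in a large part of the transcriptome. Of the 10401 genes, 5853 (56.3%) had an adjusted p below 0.05, and 2818 were called, that is they also differed by at least 2-fold. In all, 1541 genes were called higher in IP, which is 14.8% of the genes tested, and 1277 were called lower, which is 12.3%. The direction was the same in every pair for 1519 of the genes called higher and for 1277 of those called lower. The 3 IP values lay above the 3 input values for 23.8% of all genes tested and below them for 34.3%. The median log2 fold change of all tested genes was 0.04, with quartiles of -0.54 and 0.62. On FPKM values with limma, 940 genes were called higher and 1270 lower, so that the share higher among the called genes was 42.5% in place of 54.7%. With library totals alone as scaling it was 45.7%, and the median of all genes was -0.07 in place of 0.04, a shift of over 0.1. The fold changes given below depend on the scaling in the same way, but single genes moved by different amounts and not all downward.

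**Figure D1:**
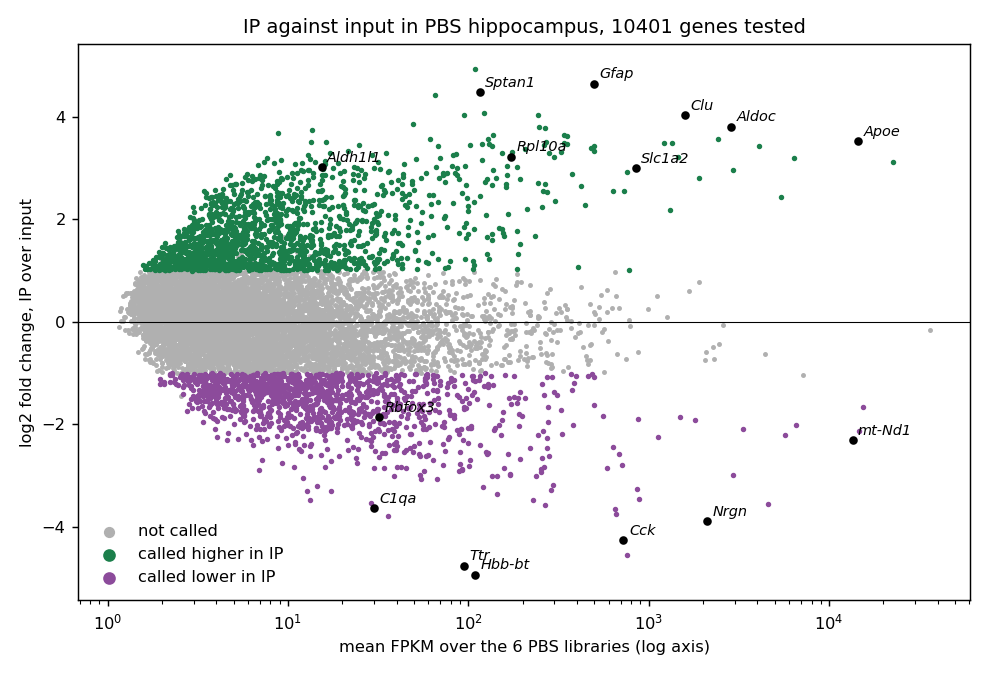
Each point is 1 of the 10401 genes tested, with its mean FPKM over the 6 PBS libraries on a log axis and its log2 fold change of IP over input. Green points are the 1541 genes called higher in IP, purple points the 1277 called lower, grey points the rest, and black points are named genes, with Gfap near the top at 4.65 and Hbb-bt at the bottom at -4.94.

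The 4 astrocyte markers that the study used were all higher in IP, in each of the 3 pairs. Slc1a2 (chromosome 2, 102658659 to 102790784 of GRCm38), the main glutamate transporter of astrocytes, was at 1699, 1691 and 1067 FPKM in IP and 205, 209 and 217 in input (log2 fold change 2.99 ± 0.50 SE, adjusted p = 0.000324). Aldh1l1 (chromosome 6, 90486427 to 90600203), a folate enzyme that marks astrocytes throughout the brain, was at 26.2, 31.1 and 23.5 FPKM in IP and 2.89, 3.75 and 4.64 in input (log2 fold change 3.02 ± 0.23 SE, adjusted p = 1.29e-06). No IP value of either gene came near an input value, and for both the lowest IP value was that of library #3. Gja1 (chromosome 10, 56377330 to 56402513), which encodes connexin 43, was at 71.05, 68.3 and 51.6 FPKM in IP and 10.4, 11.01 and 10.98 in input (log2 fold change 2.72 ± 0.25 SE, adjusted p = 3.57e-06). Kcnj10 (chromosome 1, 172341210 to 172374085), the inward rectifier potassium channel Kir4.1, was at 75.4, 78.4 and 60.2 FPKM in IP and 12.8, 14.9 and 14.3 in input (log2 fold change 2.51 ± 0.23 SE, adjusted p = 3.29e-06). Within pairs, the IP/input ratio was 7.49 ± 2.13 (SD, n = 3) for Aldh1l1, 7.09 ± 1.89 for Slc1a2, 5.90 ± 1.09 for Gja1 and 5.11 ± 0.843 for Kcnj10. Pair 3 had the smallest ratio for all 4 genes. The cell type label of the IP libraries, hippocampal astrocyte, thus matched its markers, while the label is the same for input, which held whole-hippocampus RNA.

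None of the study's markers of other cells was called higher in IP. Of 16 such markers, 8 passed the filter, 3 were called lower, and their median log2 fold change was -0.79. The neuronal nuclear protein gene Rbfox3 was at 15.5, 8.61 and 14.6 FPKM in IP and 49.2, 48.9 and 54.7 in input (log2 fold change -1.86 ± 0.20 SE, adjusted p = 9.58e-06), lower in every IP library than in any input library. The microglial and macrophage lysosomal gene Cd68 was at 1.09, 1.53 and 1.52 FPKM in IP and 4.67, 6.73 and 8.06 in input (log2 fold change -2.10 ± 0.28 SE, adjusted p = 5.38e-05). The oligodendrocyte marker Mobp (-0.71, adjusted p = 0.00514) differed by less than 2-fold, and Mog (-0.50, adjusted p = 0.0976, or 0.00406 without PBS IP #3) and Sox10 (0.16, adjusted p = 0.419) did not pass. With the pairs as a block, Mog passed (adjusted p = 0.00567). Of the 8 that missed the filter, Tmem119 was low in IP alone and is given with the microglial genes. Esam and Cntn3 were above 1 FPKM in every input library and missed the filter only in IP. The others were low in both kinds of library. Cntn3, a neuronal adhesion gene, was at 1.26, 0.807 and 2.55 FPKM in IP and 1.45, 1.64 and 1.62 in input, and the leukocyte gene Ptprc and the chemokine gene Ccl3 were at most 0.224 and 0.909 in any library. Of the endothelial markers, Esam was between 0.697 and 1.76 FPKM in IP and between 2.01 and 2.91 in input and Nostrin at 0.694, 1.21 and 1.97 FPKM in IP and 0.527, 1.33 and 1.46 in input. Icam2 and Apold1 were at most 0.700 and 1.12. These markers were chosen by the study for these libraries and are not independent evidence of the direction.

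**Figure D2:**
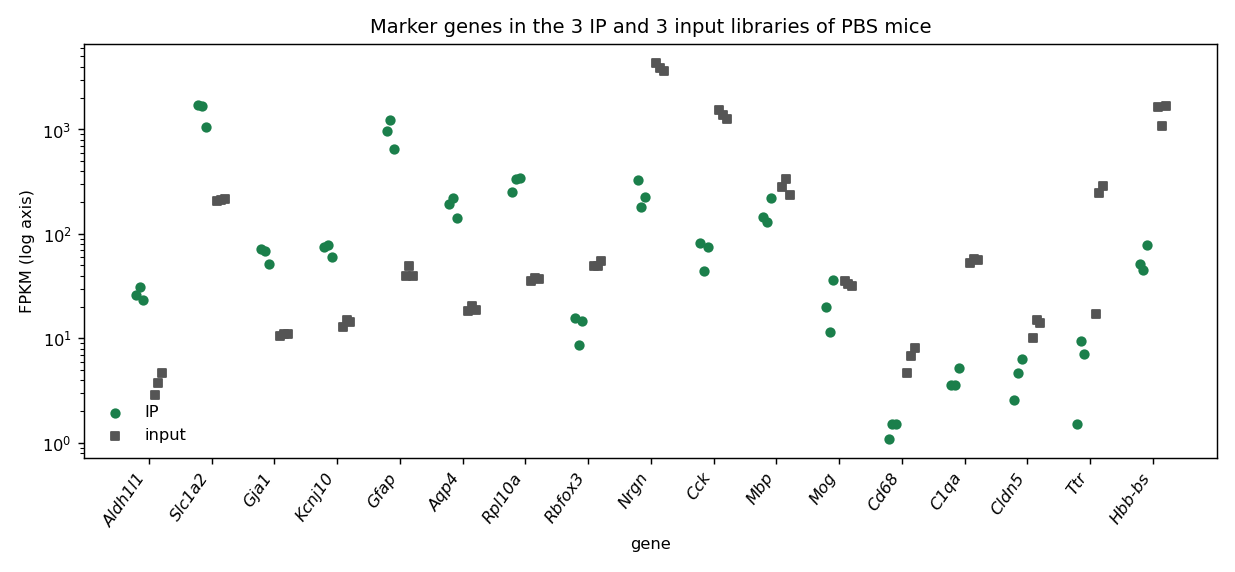
FPKM on a log axis of 17 genes in each PBS library, with green circles for the 3 IP libraries and grey squares for the 3 input libraries, ordered 1 to 3 from left to right. The astrocyte genes at the left and Rpl10a lie higher in IP in all 3 libraries, most genes of other cells at the right lie lower, and Mbp and Mog are close or overlap between IP and input.

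The gene of the tagged protein itself was among the clearest differences. Rpl10a (chromosome 17, 28328471 to 28331033), a protein of the large ribosomal subunit, was at 253, 338 and 341 FPKM in IP and 35.2, 38.00 and 36.8 in input (log2 fold change 3.22 ± 0.23 SE, adjusted p = 1.15e-06). The virus carries the mouse Rpl10a sequence, so reads of the transgene and of the endogenous gene cannot be told apart in these counts, and the processed pseudogene Rpl10a-ps1 moved with it (log2 fold change 3.45 ± 0.29 SE, adjusted p = 2.23e-06). The other ribosomal protein genes did not share this difference, as given below. Gfap (chromosome 11, 102887336 to 102900912), the intermediate filament gene whose promoter fragment drives the tag, was at 958, 1225 and 655 FPKM in IP and 39.97, 49.4 and 39.5 in input (log2 fold change 4.65 ± 0.42 SE, adjusted p = 3.14e-06), a 25.03-fold difference and the second largest among the genes called higher. Igfbp2, an insulin-like growth factor binding protein, was at 50.1, 56.7 and 43.99 FPKM in IP and 11.7, 20.7 and 21.3 in input (log2 fold change 1.67 ± 0.23 SE, adjusted p = 7.78e-05).

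Genes of 10 lists of astrocyte function, reactive genes included, were then followed. Together the lists held 122 different genes, of which 100 passed the filter. Of the 100, 88 were called higher in IP (91 without PBS IP #3) and 1 was called lower, against 14.8% and 12.3% of all genes tested. All 3 IP values lay above all 3 input values in 94 of the 100, against 23.8% of all genes tested. Their median log2 fold change was 2.19, against 0.04 for all genes tested. These genes took 19.8%, 24.6% and 15.7% of the counts in IP libraries #1, #2 and #3, and 2.49%, 2.78% and 2.53% in the matching input libraries. The most abundant members carry lipid or inhibit proteases. Apoe, which encodes the apolipoprotein of astrocyte lipoproteins, was at 25659, 33434 and 20388 FPKM in IP and 2381, 3043 and 2375 in input, and Cst3, a secreted protease inhibitor that microglia also express, was at 38663, 47409 and 33468 FPKM in IP and 5551, 5333 and 4480.4 in input. Both were called higher (3.52 and 3.12 on the log2 scale, adjusted p = 0.000755 and 0.00119).

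Genes of transmitter clearance and ion handling were higher in IP. Of 10 genes of glutamate and GABA clearance, all passed the filter and 9 were called higher, with a median of 2.54. Glul, the glutamine synthetase that converts glutamate to glutamine, was at 776, 1188 and 627 FPKM in IP and 84.8, 103 and 94.6 in input (log2 fold change 3.39 ± 0.39 SE, adjusted p = 1.63e-05). The second glutamate transporter gene Slc1a3 was at 276, 273 and 186 FPKM in IP and 38.4, 39.97 and 40.02 in input (log2 fold change 2.80 ± 0.32 SE, adjusted p = 1.47e-05). The GABA transporter gene Slc6a11 (2.29) was also called. Glud1, glutamate dehydrogenase, was at 125, 125 and 94.03 FPKM in IP and 31.6, 30.4 and 32.9 in input (log2 fold change 2.02 ± 0.24 SE, adjusted p = 1.96e-05). Aldh5a1, of GABA breakdown, was just under 2-fold (log2 fold change 0.98 ± 0.17 SE, adjusted p = 0.000348). All 10 genes of this list were called higher without PBS IP #3. All 13 genes of potassium, water and endfoot function were tested and called higher, with a median of 2.29 and a range from 1.05 to 3.45. Aqp4, the water channel of endfeet, was at 194, 223 and 141 FPKM in IP and 18.2, 20.6 and 18.9 in input (log2 fold change 3.45 ± 0.30 SE, adjusted p = 2.72e-06). Mlc1, a membrane protein of the same endfeet, was at 362, 449 and 304 FPKM in IP and 32.05, 46.4 and 43.5 in input (log2 fold change 3.37 ± 0.29 SE, adjusted p = 2.53e-06). Atp1b2, a sodium pump subunit gene, was at 219, 204 and 152 FPKM in IP and 37.8, 38.5 and 41.7 in input (log2 fold change 2.45 ± 0.26 SE, adjusted p = 8.56e-06). The scaffold genes Dag1 and Dtna, which muscle and other cells share, lay at the low end with 1.05 and 1.13. On the log2(FPKM + 1) scale 8 of the 13 were called. Of the 3 connexin genes, Gja1 and Gjb6 (connexin 30, 2.76) were called, and Gjb2, at 1.71, 2.40 and 1.74 FPKM in IP and 0.745, 1.35 and 1.19 in input, did not pass the filter.

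Metabolic genes were higher in IP with few exceptions. Of 22 tested genes of cholesterol and lipid metabolism (24 listed), 20 were called higher and none lower, with a median of 1.92. The lipid carriers and lipid-handling enzymes led, with Clu (clusterin) at 2784, 4070.2 and 2069.7 FPKM in IP and 170.2, 236 and 220.3 in input (log2 fold change 4.03 ± 0.48 SE, adjusted p = 2.36e-05), Pla2g7 (platelet-activating factor acetylhydrolase) at 3.81 and Fabp7 (brain fatty acid-binding protein) at 3.32. Several enzymes of the sterol pathway itself were nearer to 2-fold. Hmgcs1 was at 1.25, Sqle at 1.02 and Lss at 1.08, all called. Of 8 tested genes of serine, glycine and folate metabolism (10 listed), 7 were called higher, with a median of 2.42. Phgdh, the first enzyme of serine synthesis, was at 176, 212 and 118 FPKM in IP and 19.2, 26.5 and 24.2 in input (log2 fold change 3.04 ± 0.30 SE, adjusted p = 5.19e-06), and Gldc, of glycine cleavage, at 2.56. Psat1, the next enzyme of that pathway, was at 38.1, 39.3 and 31.2 FPKM in IP and 10.3, 10.5 and 11.1 in input (log2 fold change 1.93 ± 0.20 SE, adjusted p = 8.25e-06), and the amino acid exchanger gene Slc7a10 at 54.2, 64.2 and 50.9 FPKM in IP and 6.88, 8.63 and 8.52 in input (log2 fold change 2.98 ± 0.21 SE, adjusted p = 1.15e-06). Slc1a4, a further serine transporter gene, was under 2-fold (0.94). All 8 tested genes of this list were called higher without PBS IP #3. Of 10 tested genes of glycogen, glucose and lactate (12 listed), 9 were called higher, with a median of 2.09. Aldoc, the aldolase of astrocytes, was at 4598, 7338 and 4009 FPKM in IP and 362, 501 and 441 in input (log2 fold change 3.80 ± 0.53 SE, adjusted p = 7.12e-05). Ldhb, a lactate dehydrogenase subunit, was at 1909, 2783 and 1618 FPKM in IP and 455, 578 and 552 in input (log2 fold change 2.18 ± 0.36 SE, adjusted p = 0.000279). Ppp1r3c, which targets a phosphatase to glycogen, had 2.34. Both glycogen phosphorylases, Pygb (2.27) and Pygm (1.92), and glycogen synthase Gys1 (1.31) were called. The monocarboxylate transporter gene Slc16a1 was the one tested member not called (log2 fold change 0.44 ± 0.15 SE, adjusted p = 0.0248), and its IP and input values overlapped.

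Of 13 astrocyte transcription factor genes, all tested, 9 were called higher and none lower, with a median of 1.91. The number called higher was 10 without PBS IP #3. Sox9, a glial fate factor, was at 42.6, 33.3 and 28.5 FPKM in IP and 6.28, 6.54 and 6.47 in input (log2 fold change 2.59 ± 0.22 SE, adjusted p = 2.06e-06), and Dbx2 (2.88), Id4 (2.80), Sox2 (2.57) and Rfx4 (2.50) had similar differences. Of the nuclear factor I genes, which neurons and glia both express, Nfia was just called higher (1.02), whereas Nfib and Nfix were close to input. Nfib was at 17.4, 9.75 and 13.8 FPKM in IP and 15.8, 14.4 and 16.2 in input (log2 fold change -0.06 ± 0.21 SE, adjusted p = 0.833) and Nfix at 36.1, 26.6 and 23.7 FPKM in IP and 27.7, 31.8 and 31.5 in input (log2 fold change 0.08 ± 0.22 SE, adjusted p = 0.772). Zbtb20 (0.42, adjusted p = 0.173, or 0.0452 without PBS IP #3) likewise did not pass, and Prdm16 passed at under 2-fold (0.95, adjusted p = 0.00202).

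Receptor genes held the one listed astrocyte gene that was called lower. Of 8 tested (11 listed), 7 were called higher, with a median of 2.56. The neurotensin receptor Ntsr2 was at 616, 780.3 and 466 FPKM in IP and 50.2, 59.6 and 58.3 in input (log2 fold change 3.65 ± 0.34 SE, adjusted p = 3.61e-06), the orphan receptor Gpr37l1 at 3.47, the sphingosine phosphate receptor S1pr1 at 3.04 and the endothelin receptor Ednrb at 2.51. The metabotropic glutamate receptor genes Grm3 and Grm5 went opposite ways, with the first at 54.1, 44.1 and 32.2 FPKM in IP and 14.3, 15.8 and 12.4 in input (log2 fold change 1.77 ± 0.25 SE, adjusted p = 7.92e-05) and the second, which adult neurons express, at 7.96, 4.08 and 8.19 FPKM in IP and 22.7, 20.5 and 22.3 in input (log2 fold change -1.60 ± 0.21 SE, adjusted p = 4.85e-05). Itpr2, the inositol trisphosphate receptor of astrocyte calcium signals, missed the filter in 2 input libraries, with 3.68, 3.17 and 3.51 FPKM in IP and 0.968, 0.961 and 1.19 in input. It was higher in IP where genes with a mean FPKM above 1 were tested (log2 fold change 1.82 ± 0.17 SE, adjusted p = 1.18e-06). Of 11 tested secreted and phagocytic genes (13 listed), 10 were called higher, with a median of 2.27. Sparcl1, a secreted synapse-organising protein, was at 1319, 1630.0 and 1028 FPKM in IP and 189, 208 and 197 in input (log2 fold change 2.92 ± 0.36 SE, adjusted p = 2.96e-05), and the phagocytic receptors Mertk (1.72) and Megf10 (1.88) were called as well. The matrix protein gene Sparc was at 679, 792 and 667 FPKM in IP and 112, 139.6 and 128 in input (log2 fold change 2.65 ± 0.30 SE, adjusted p = 1.58e-05), and Ptn, encoding the growth factor pleiotrophin, had 1.77. Gpc4, a glypican, was lower in IP at under 2-fold (log2 fold change -0.82 ± 0.18 SE, adjusted p = 0.00248), while its relative Gpc5 was higher (2.27).

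Genes known from reactive astrocytes were mostly too low to test. Of 13, only Gfap, Vim and Serpina3n had FPKM above 1 in all 6 libraries. Vim, an intermediate filament gene, was at 15.2, 15.8 and 16.3 FPKM in IP and 2.10, 2.68 and 2.72 in input (log2 fold change 2.80 ± 0.17 SE, adjusted p = 7.95e-07). Serpina3n, an acute-phase protease inhibitor, was at 11.7, 9.37 and 14.2 FPKM in IP and 6.70, 8.6 and 8.19 in input, below 2-fold (log2 fold change 0.71 ± 0.16 SE, adjusted p = 0.00241). Among the untested members, Cxcl10 was at 2.52, 1.94 and 3.81 FPKM in IP and 0.354, 0.330 and 0.218 in input and Cd44 at 2.18, 1.93 and 2.01 FPKM in IP and 0.367, 0.576 and 0.464 in input, each above input in all IP libraries, whereas Lcn2 was at 0.0238, 0.0668 and 0.109 FPKM in IP and 0.304, 0.531 and 0.525 in input and Steap4 at 0.0198, 0.0277 and 0.0906 FPKM in IP and 0.0631, 0.0295 and 0.0623 in input. For an untested gene, 3 values against 3 allow a smallest exact permutation p of 0.1 (two-sided, log2(FPKM + 1)), which Cxcl10, Cd44 and Lcn2 reached. The other untested members of this list were Hspb1, S1pr3, Timp1, Osmr, Cp and Aspg.

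**Figure D3:**
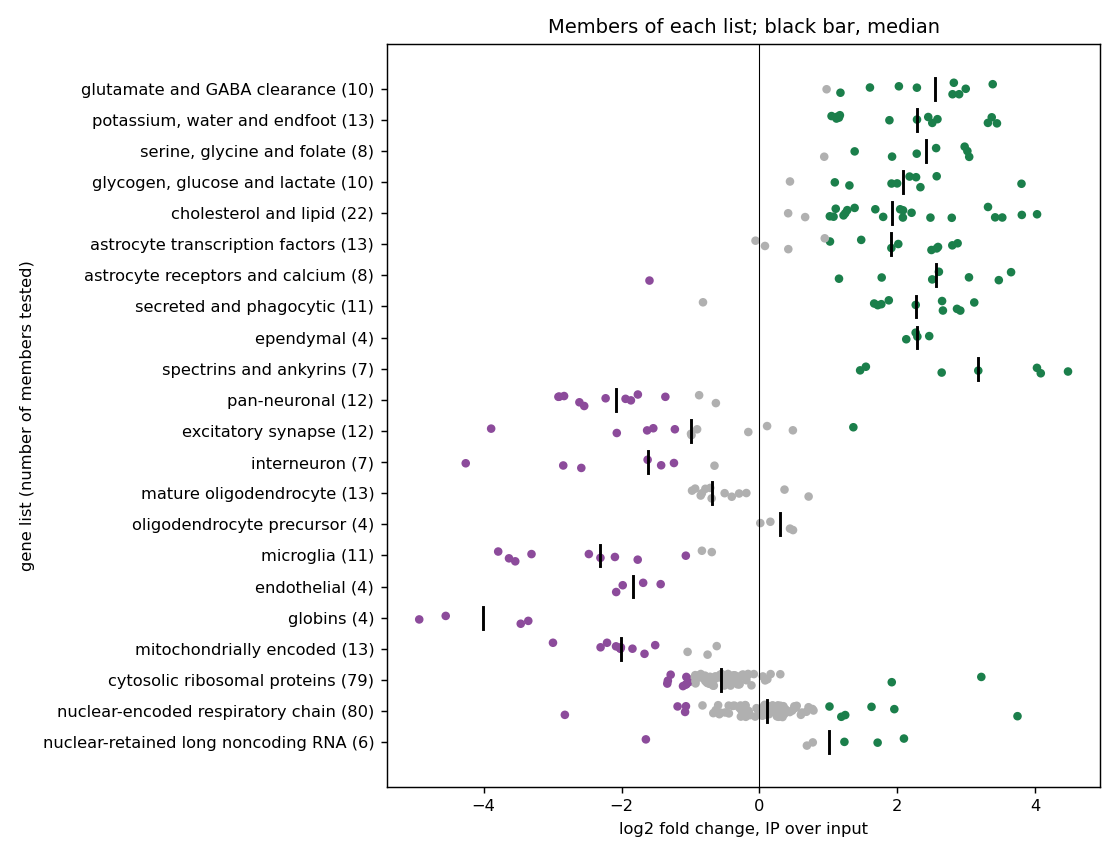
Log2 fold change of IP over input for the tested members of 22 gene lists, with 1 point per gene, green if called higher in IP, purple if called lower, grey otherwise, and a black bar at the median. The 8 lists of astrocyte function at the top have medians between 1.91 and 2.56, lists of neurons, microglia, vessels and blood lie below 0, and mature oligodendrocyte genes lie between -0.98 and 0.71.

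Among the 15 largest differences in the direction of IP with all pairs alike, 5 were members of the astrocyte lists (Gfap, Clu, Pla2g7, Aldoc and Ntsr2), and others encode spectrins or an actin-binding protein of the cell cortex. The set also held Fxyd1, a regulator of the sodium pump (4.03), Aldh1a1, an enzyme of retinoic acid synthesis (3.86), Id3, an inhibitor of transcription factors (3.79), the complement gene C4b (3.68) and Cox6b2, an isoform of a cytochrome oxidase subunit (3.75). The spectrin gene Sptan1 was at 107, 168 and 388 FPKM in IP and 8.03, 10.8 and 12.5 in input (log2 fold change 4.48 ± 0.43 SE, adjusted p = 4.34e-06). Sptbn1, a beta spectrin, was at 47.8, 180.4 and 303 FPKM in IP and 8.69, 12.6 and 13.6 in input (log2 fold change 4.03 ± 0.53 SE, adjusted p = 5.03e-05). Ppp1r9a, the actin-binding protein neurabin, was at 57.2, 67.6 and 249 FPKM in IP and 4.48, 6.37 and 6.996 in input (log2 fold change 4.43 ± 0.47 SE, adjusted p = 8.94e-06). Unlike the astrocyte markers, these 3 genes were lowest in IP #1 and highest in IP #3, although every IP value was above every input value. A list of 10 spectrin and ankyrin genes, made after these values were seen, had 7 members that passed the filter, all called higher, with a median of 3.18. In it, the ankyrin genes Ank2 (17.7, 31.8 and 51.6 FPKM in IP and 4.28, 6.51 and 6.64 in input) and Ank3 (5.52, 9.64 and 14.7 FPKM in IP and 2.78, 3.94 and 4.36 in input) had the same order of IP libraries. Also among the 15, not all of which are named here, CT010467.2 (chromosome 17, 39811786 to 39812022), an unprocessed pseudogene, was at 20.02, 517 and 90.3 FPKM in IP and 6.27, 12.1 and 6.33 in input (log2 fold change 4.93 ± 0.98 SE, adjusted p = 0.00106), with a 26-fold spread among the IP libraries.

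The 15 largest differences in the direction of input comprised 3 globin genes, Ttr, Cck, Nrgn, C1qa, C1qb, Ctss and Mgp, which are given with their cell types below, and genes on none of the lists that are abundant in neurons. Calm2, a calmodulin gene that other cells express too, was at 720.0, 560.3 and 709 FPKM in IP and 9258, 8603 and 7597 in input (log2 fold change -3.56 ± 0.42 SE, adjusted p = 1.93e-05). Hpca, the hippocampal calcium sensor hippocalcin, was at 104, 50.1 and 99.9 FPKM in IP and 1327, 1219.7 and 1133 in input (log2 fold change -3.76 ± 0.35 SE, adjusted p = 3.6e-06). Rtn1, a reticulon of the endoplasmic reticulum, was at 109, 68.4 and 84.6 FPKM in IP and 1201, 1264 and 1152 in input (log2 fold change -3.66 ± 0.36 SE, adjusted p = 5.35e-06). All 3 were more than 10-fold lower in IP, and so was Basp1, of growth cones, at -3.47.

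Pan-neuronal genes were lower in IP, to different degrees. Of 12 pan-neuronal genes, all tested, 10 were called lower, against 12.3% of all genes tested, with a median of -2.09. All 12 had every IP value below every input value, against 34.3% of all genes tested. Snap25, of the synaptic vesicle fusion machinery, was at 66.4, 40.04 and 75.4 FPKM in IP and 449, 474 and 469 in input (log2 fold change -2.83 ± 0.30 SE, adjusted p = 8.37e-06), and the vesicle protein gene Syp at 21.3, 15.4 and 21.6 FPKM in IP and 147, 169.5 and 159 in input (log2 fold change -2.90 ± 0.21 SE, adjusted p = 1.15e-06). Syt1, the calcium sensor of vesicle release, had -2.54. Neurofilament genes were nearer to input, with Nefl at -1.76, Nefm at -1.36 and Nefh at -0.63, the last under 2-fold. Map2, whose mRNA is carried into dendrites, was also under 2-fold (log2 fold change -0.87 ± 0.18 SE, adjusted p = 0.00152). IP #2 had the lowest IP value of all 12 genes.

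Genes of excitatory synapses were mixed. Of 12 tested (13 listed), 5 were called lower, 1 higher and 6 not, with a median of -0.99. Over all genes tested, 12.3% were called lower and 14.8% higher. Nrgn, a calmodulin-binding protein of dendritic spines, was at 328, 179.6 and 225 FPKM in IP and 4348, 3881 and 3624 in input (log2 fold change -3.89 ± 0.38 SE, adjusted p = 5.35e-06), and the vesicular glutamate transporter gene Slc17a7 at 37.9, 28.3 and 45.4 FPKM in IP and 154, 173 and 179.5 in input (log2 fold change -2.07 ± 0.21 SE, adjusted p = 5.97e-06). Camk2a was at -1.63 and the AMPA receptor gene Gria1 at -1.23, both called. In contrast, the postsynaptic scaffold gene Shank2 was at 16.02, 8.46 and 16.8 FPKM in IP and 4.96, 6.48 and 5.81 in input and was called higher (log2 fold change 1.36 ± 0.20 SE, adjusted p = 0.000125). Shank1 (149.6, 69.9 and 93.9 FPKM in IP and 110.2, 112 and 93.8 in input, adjusted p = 0.775), Gria2 (36.2, 38.8 and 96.2 FPKM in IP and 41.5, 42.4 and 43.95 in input, adjusted p = 0.177) and Grin1 (-0.16, adjusted p = 0.436) overlapped between IP and input. Without PBS IP #3, 7 of the 12 were called lower.

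Most interneuron genes and all tested CA1 genes were lower in IP. Of 7 tested interneuron genes (10 listed), 6 were called lower, against 12.3% of all genes tested, with a median of -1.62. The neuropeptide gene Cck was at 81.8, 44.3 and 75.2 FPKM in IP and 1535, 1366 and 1248 in input (log2 fold change -4.26 ± 0.30 SE, adjusted p = 1.15e-06) and Sst, encoding somatostatin, at 268, 147 and 117 FPKM in IP and 1167, 1222 and 1178 in input (log2 fold change -2.58 ± 0.33 SE, adjusted p = 3.4e-05). Pvalb was at -2.85, Gad1 at -1.62 and Npy at -1.43, and Vip did not pass (-0.65, adjusted p = 0.0774, or 0.00127 with the pairs as a block). All 3 tested CA1 genes were called lower, with Pou3f1 at -2.52, Mpped1 at -1.85 and Wfs1 at -1.27. Of 4 tested dentate granule cell genes, C1ql2 (-2.51) and Calb1 (-2.04) were called lower and Prox1 (-0.92) was under 2-fold, while Plk5 did not pass (-0.34, adjusted p = 0.226). The CA1 gene Fibcd1, at 2.67, 0.903 and 1.98 FPKM in IP and 13.97, 12.2 and 17.2 in input, and the CA3 gene Iyd, at 0.846, 0.162 and 1.35 FPKM in IP and 2.58, 1.78 and 2.67 in input, missed the filter. Of 3 tested CA3 genes, where the virus was injected, Cpne4 was called lower (-2.40), while Nectin3 and Grik4 overlapped between IP and input (0.26 and -0.09, adjusted p = 0.122 and 0.697, the former 0.0436 without PBS IP #3).

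Microglial genes were lower in IP. Of 16 listed, 11 passed the filter, 9 were called lower and none higher, with a median of -2.31. Over all genes tested, 12.3% were called lower. The complement genes C1qa, at 3.60, 3.62 and 5.22 FPKM in IP and 52.3, 58.1 and 56.4 in input (log2 fold change -3.63 ± 0.17 SE, adjusted p = 2.35e-07), and C1qb, at 3.61, 3.06 and 7.004 FPKM in IP and 59.5, 71.3 and 69.9 in input (log2 fold change -3.79 ± 0.21 SE, adjusted p = 7.95e-07), were more than 10-fold lower. Ctss, a lysosomal protease, was at 4.78, 1.68 and 6.38 FPKM in IP and 47.1, 57.5 and 55.7 in input (log2 fold change -3.54 ± 0.27 SE, adjusted p = 1.31e-06). Tyrobp, a microglial signalling adaptor, was at 3.56, 4.73 and 13.6 FPKM in IP and 39.2, 47.2 and 38.03 in input (log2 fold change -2.47 ± 0.33 SE, adjusted p = 4.94e-05), with IP #3 the highest of the IP libraries. The homeostatic gene P2ry12 (-0.83) was under 2-fold. Genes that were low in IP alone fell under the filter and were not tested: Tmem119 was at 0.674, 0.340 and 0.741 FPKM in IP and 4.99, 5.10 and 6.33 in input, Cx3cr1 at 1.48, 0.719 and 0.825 FPKM in IP and 6.32, 5.84 and 6.66 in input and Csf1r at 0.659, 0.804 and 1.37 FPKM in IP and 3.69, 4.10 and 4.27 in input.

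No gene of mature oligodendrocytes was called. All 13 passed the filter, with 7 at an adjusted p below 0.05 and less than 2-fold and a median of -0.69. Mbp, a myelin protein gene, was at 144, 131 and 219 FPKM in IP and 280.4, 335 and 237 in input (log2 fold change -0.69 ± 0.29 SE, adjusted p = 0.0603, or 0.0412 with the pairs as a block and 0.0184 without PBS IP #3). Cnp, another myelin gene, overlapped (0.36, adjusted p = 0.0937). Aspa was higher in IP (log2 fold change 0.71 ± 0.21 SE, adjusted p = 0.0112), under 2-fold. It no longer passed with library totals as scaling (adjusted p = 0.0977), with limma on log2(FPKM + 1) (0.16), without PBS input #3 (0.0576) or without pair 3 (0.0938). The median log2 ratio of the list within pairs 1, 2 and 3 was -0.84, -1.36 and 0.18, and its summed FPKM was 422, 309 and 653 in IP against 779, 795 and 625 in input. Without PBS IP #3, 4 of the 13 were called lower, 3 without PBS input #3, and 2 with the pairs as a block. Of 7 oligodendrocyte precursor genes, 4 were tested and none was called, with Olig1 at 40.4, 39.5 and 47.8 FPKM in IP and 30.2, 36.2 and 33.2 in input (log2 fold change 0.49 ± 0.15 SE, adjusted p = 0.014) and Olig2 at 0.01. C1ql1 overlapped as well (0.44, adjusted p = 0.184, or 0.0275 without PBS IP #3). Olig1 no longer passed in several alternatives, among them library totals as scaling (adjusted p = 0.0822) and fits without PBS input #1 (0.0774) or #3 (0.0973). Pdgfra, the defining receptor of these cells, was at 0.990, 0.638 and 0.922 FPKM in IP and 1.42, 1.26 and 1.501 in input and missed the filter.

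Vessel, blood and choroid plexus genes that could be tested were lower in IP. All 4 tested endothelial genes (12 listed) were called lower, with a median of -1.84, for example Cldn5, a tight junction gene, at 2.60, 4.70 and 6.32 FPKM in IP and 10.2, 15.1 and 14.2 in input (log2 fold change -1.43 ± 0.26 SE, adjusted p = 0.000565). The others were Ly6a, at 1.66, 7.34 and 10.1 FPKM in IP and 28.7, 27.6 and 28.4 in input (log2 fold change -2.08 ± 0.41 SE, adjusted p = 0.000935), Ly6c1 (-1.98) and Itm2a (-1.69). Among the IP libraries, #1 had the lowest and #3 the highest value of each of the 4. The mural cell gene Rgs5 was called lower (-1.90), whereas Pdgfrb, which also marks mural cells, was at 2.99, 3.32 and 3.88 FPKM in IP and 0.872, 1.32 and 1.22 in input, missed the filter in 1 input library and was higher in IP where it was tested (log2 fold change 1.65 ± 0.20 SE, adjusted p = 1.31e-05). Vtn, a pericyte gene, was at 0.769, 3.19 and 4.32 FPKM in IP and 14.95, 20.01 and 19.7 in input, and the smooth muscle actin gene Acta2 at 2.16, 0.877 and 25.4 FPKM in IP and 2.13, 3.05 and 3.98 in input, the latter high in IP #3 alone. The 4 globin genes, added after their values were seen, were all called lower, led by Hbb-bt at 6.66, 4.86 and 7.59 FPKM in IP and 242, 161 and 233 in input (log2 fold change -4.94 ± 0.23 SE, adjusted p = 2.35e-07), the lowest fold change of all genes called. Hbb-bs was at 51.8, 44.8 and 77.8 FPKM in IP and 1627, 1091 and 1667 in input (log2 fold change -4.55 ± 0.27 SE, adjusted p = 7.95e-07) and Hba-a1 had -3.46, and such near-identical copies can share reads. Ttr, a choroid plexus transcript, was at 1.53, 9.45 and 7.07 FPKM in IP and 16.95, 247 and 287 in input (log2 fold change -4.76 ± 0.85 SE, adjusted p = 0.000494), with a 17-fold spread among the input libraries. Other choroid plexus genes did not pass the filter. Folr1 was at 0.869, 0.267 and 4.69 FPKM in IP and 0.477, 0.890 and 0.984 in input, highest in IP #3, and Kcnj13 and Kl were at most 1.35 and 1.03. None of the 7 meningeal fibroblast genes passed either. Dcn was at 0.492, 0.705 and 1.09 FPKM in IP and 7.62, 12.9 and 12.7 in input, and Ogn, Lum and Col1a2 were at most 1.95, 1.12 and 0.396, each highest in an input library. Mgp, a matrix protein of vessel walls, was at 1.26, 2.14 and 2.73 FPKM in IP and 21.8, 18.6 and 33.4 in input (log2 fold change -3.48 ± 0.28 SE, adjusted p = 1.47e-06).

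Among the lists of other cell types, only the ependymal one had more genes called higher than lower, and these calls depended on the libraries and the tool used. All 4 tested genes (5 listed) were called higher, with a median of 2.28. Tmem212 was at 18.4, 5.01 and 116 FPKM in IP and 11.8, 8.05 and 8.10 in input (log2 fold change 2.27 ± 0.73 SE, adjusted p = 0.0189), and Dynlrb2, a dynein light chain of cilia, at 14.6, 6.30 and 82.6 FPKM in IP and 6.98, 5.01 and 6.37 in input (log2 fold change 2.46 ± 0.65 SE, adjusted p = 0.00676). In both, IP #3 was far above every other library and IP #1 and #2 were close to input. Rarres2, at 10.3, 6.63 and 25.4 FPKM in IP and 3.07, 3.08 and 3.85 in input, was above input in all IP libraries (log2 fold change 2.13 ± 0.32 SE, adjusted p = 0.000144). The median log2 ratio of the list was 0.85, -0.18 and 3.68 in pairs 1, 2 and 3. Without PBS IP #3, the list median was 0.80 and Dynlrb2 and Rarres2 were still called, while Tmem212 (adjusted p = 0.283) and Ccdc153 (adjusted p = 0.485) were not. Without pair 3, Rarres2 alone was called. With all 6 libraries, DESeq2 called 2 of the 4 (Tmem212 at an adjusted p of 0.0636 and Ccdc153 at 0.0804), library totals gave 2, and limma-voom gave 1, with Dynlrb2 at an adjusted p of 0.0527. Ependymal cells line the ventricles and bear motile cilia. Their part in IP #3 was not tested.

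**Figure D4:**
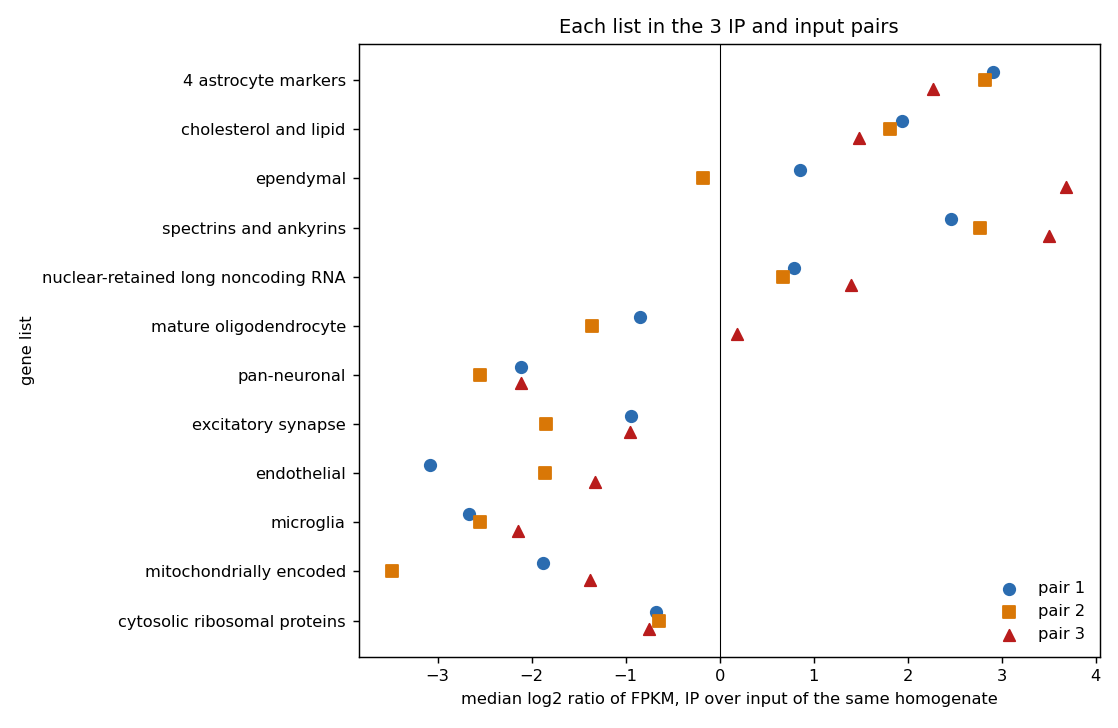
Median log2 ratio of FPKM in IP over input of the same homogenate, for 12 gene lists, with 1 symbol for each of the 3 pairs. Pair 3 (triangles) is lowest for the 4 astrocyte markers and highest for ependymal, spectrin and oligodendrocyte genes, and pair 2 (squares) is lowest for pan-neuronal and mitochondrially encoded genes.

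Classes of RNA that are not tied to a cell type also differed. The 13 mitochondrially encoded genes, which are translated on mitochondrial ribosomes that do not carry the tag, took 4.43%, 0.930% and 3.40% of the counts in IP #1, #2 and #3 and 11.3%, 9.01% and 8.65% in input. Of the 13, 10 were called lower, against 12.3% of all genes tested, with a median of -2.01. With the pairs as a block, mt-Co1 (-1.22, adjusted p = 0.0174) and mt-Nd5 (-1.02, adjusted p = 0.0146) passed as well. For example, mt-Nd1 was at 5779, 1974 and 5275 FPKM in IP and 27017, 21110.2 and 19789.5 in input (log2 fold change -2.30 ± 0.53 SE, adjusted p = 0.00274). mt-Nd2 had -2.01. mt-Cytb had -1.67 (adjusted p = 0.0347) and lost its call without PBS IP #2 (0.0512), without PBS IP #3 (0.0533) or without any 1 input library (0.07 to 0.117), which left 9 of the 13 called in each case. IP #2 had the lowest value of every one of the 13 genes. Nuclear genes of the respiratory chain were near input, with 6 of 80 called higher, 4 lower and a median of 0.11. Over all genes tested, 14.8% were called higher and 12.3% lower. The most abundant ones did not pass, with Cox8a at -0.06, Cox6a1 at -0.60, Uqcr11 at 0.60 and Cox6b1 at 0.10 (adjusted p = 0.882, 0.148, 0.145 and 0.798), although Uqcr11 passed without PBS IP #3 (adjusted p = 0.0128). The called ones held several tissue-restricted isoforms, with Cox6b2 (3.75), Cox8b (1.96), Cox7a1 (1.63) and Cox7b2 (1.19) higher and Cox6a2 (-2.82) lower. Cox7b2 no longer passed without PBS IP #2 (adjusted p = 0.0607), PBS input #1 (0.0614) or PBS input #3 (0.0845). Without PBS IP #3, 8 were called higher and 1 lower, and without PBS input #1, 2 were called lower.

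Cytosolic ribosomal protein genes, apart from Rpl10a, tended below input. Of 79 tested, 2 were called higher, Rpl10a and Rps27l (1.92), and 10 lower, which is 12.7% against 12.3% of all genes tested. Their median was -0.55, and 71 of the 79 had every IP value below every input value, against 34.3% of all genes tested. The median was alike in the 3 pairs (-0.68, -0.65 and -0.75). Rplp1, one of the most abundant, was at 416, 351 and 295 FPKM in IP and 865, 737 and 726 in input (log2 fold change -0.98 ± 0.23 SE, adjusted p = 0.0034), while Rpl41 (-0.35, adjusted p = 0.259) and Rps29 (-0.64, adjusted p = 0.063) did not pass and Rpl36 overlapped between IP and input (0.16, adjusted p = 0.529, or 0.0487 without PBS IP #3). The number called lower was 5 without PBS IP #3, 5 without PBS input #1, 6 without pair 3 and 18 without pair 2, and 17 with library totals as scaling and 16 with limma on log2(FPKM + 1). Translation factors lay in the same range, with a median of -0.69 over 12 genes, the elongation factor gene Eef1a1 at -0.87, Tpt1 at -0.93 and Eef2 at -0.44 (adjusted p = 0.00754, 0.00215 and 0.0649), Eif4a2 called lower (-1.40) and Eef1d higher (1.08). Without PBS IP #1, or without PBS input #3, 2 of them were called lower. With library totals as scaling, and with limma on log2(FPKM + 1), 3 were called lower and 0 higher, which ended the call of Eef1d.

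Of the long noncoding RNAs that are kept in the nucleus, more were called higher than lower. Of 6 tested (9 listed), 3 were called higher and 1 lower, against 14.8% and 12.3% of all genes tested, with a median of 1.0. Meg3 was at 82.8, 122 and 189 FPKM in IP and 41.1, 67.2 and 73.8 in input (log2 fold change 1.23 ± 0.33 SE, adjusted p = 0.0068) and Snhg11 at 134, 249 and 415 FPKM in IP and 44.9, 82.2 and 73.4 in input (log2 fold change 2.10 ± 0.37 SE, adjusted p = 0.000471). The highest value of both was in IP #3, and Meg3 no longer passed without PBS input #1 (adjusted p = 0.0686). Malat1 was at 1224, 2155 and 3684 FPKM in IP and 1462, 1550.0 and 1369.7 in input and did not pass (log2 fold change 0.77 ± 0.50 SE, adjusted p = 0.204), with IP #1 below input and IP #3 above it. Peg13 went the other way (7.21, 4.13 and 5.62 FPKM in IP and 18.2, 19.1 and 21.2 in input, log2 fold change -1.65 ± 0.18 SE, adjusted p = 1.4e-05). Of 8 tested immediate early genes (10 listed), 4 were called lower, against 12.3% of all genes tested. They were led by Egr1 at 2.67, 1.62 and 5.74 FPKM in IP and 14.6, 18.5 and 25.6 in input (log2 fold change -2.48 ± 0.29 SE, adjusted p = 1.88e-05), with Arc (-1.17), Junb (-1.13) and Nr4a1 (-1.07) called too. Btg2 (-0.14, adjusted p = 0.608) did not pass, and Fos overlapped between IP and input (0.49, adjusted p = 0.293, or 0.0186 with the pairs as a block). Without PBS IP #1 or without PBS IP #2, 2 of the 8 were called lower, and without PBS input #3, 1 was, while Fos was then called higher (1.14, adjusted p = 0.0134).

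Promoters were searched for 2 motifs tied to astrocyte transcription factors, on both strands of the window from 250 bases before to 50 bases after the start of the gene (RefSeq, GRCm38). The nuclear factor I palindrome (TTGGC and GCCAA with 5 bases of any kind between them) was found in none of the 1155 genes called higher that have a promoter in that table, in none of 932 called lower, in 2 of 7760 genes tested and in 0.0444% of all 27025 genes with a promoter. The SOX motif ACAATGG was found in 1.99% of the genes called higher, 2.58% of those called lower, 2.49% of the genes tested and 4.15% of all genes with a promoter. The shares are a description of these letters in this window.

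By the edgeR test without a block, no gene was called for a different distance of IP from input between PBS and the AAV control group. The latter had the virus but no PBS injection. In a test of the difference of the log2 IP/input ratio, 0 of 9597 genes were called (0% of those tested) by edgeR, with 399 (4.16%) at an unadjusted p below 0.05. By limma-voom none was called and 360 were at an unadjusted p below 0.05. Neither fit used the pairing of IP and input. The edgeR fit with homogenates as a block put more genes at an unadjusted p below 0.05, as given with the processing. On simulated data, the edgeR test without a block recovered 57% of genes changed by 1.5 on the log2 scale. DESeq2 called 5 genes, Trank1 at 1.58, Lhfpl3 at -1.42, Fmnl1 at 1.30, A230051N06Rik at 2.17 and Meg3 at 1.88 on the log2 scale, with adjusted p between 0.0442 and 0.0455, and the fit with homogenates as a block called 1, Mir6236. For Aldh1l1 the difference, PBS minus AAV control, was -0.29 (95% interval -0.93 to 0.36, adjusted p = 0.942), for Slc1a2 -0.25 (95% interval -1.32 to 0.81, adjusted p = 0.955), for Gja1 -0.23 (95% interval -0.87 to 0.42, adjusted p = 0.942) and for Kcnj10 -0.27 (95% interval -0.99 to 0.46, adjusted p = 0.942). The intervals reach a log2 difference of -0.87 to -1.32, so that the groups are not shown to be alike. All 100 tested genes of astrocyte function had a median of 2.19 in PBS. The 98 of them tested in both groups had a median difference of -0.23, and 3 were at an unadjusted p below 0.05. Nuclear long noncoding RNAs had the largest median difference of the lists, at 1.41 over 6 genes. Their median log2 fold change was 1.0 in PBS and -0.27 in the AAV control group, Meg3 differing by 1.89 (95% interval 0.84 to 2.95, adjusted p = 0.942). The PBS libraries came from run 3 and the AAV control libraries from runs 1 and 2, so run and group cannot be told apart. The AAV control group also lacked the second surgery. The paper names time course and invasiveness of surgery as ways in which it differed from the KA group. Surgery and time cannot be told apart from run either.

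IP and input were further apart in PBS than in KA mice for many astrocyte genes. Of 9305 genes tested for this difference, 826 (8.88%) were called with a higher IP/input ratio in PBS and 463 (4.98%) with a lower one. Aldh1l1 differed by 1.08 (95% interval 0.51 to 1.65, adjusted p = 0.0101), Slc1a2 by 1.71 (95% interval 0.78 to 2.65, adjusted p = 0.012) and Gja1 by 1.63 (95% interval 1.04 to 2.22, adjusted p = 0.00132) on the log2 scale, whereas Kcnj10 did not pass, at 0.31 (95% interval -0.24 to 0.86, adjusted p = 0.4). In the KA group itself, the ratio of Slc1a2 was 2.19 ± 0.155 (SD, n = 3), against 7.09 ± 1.89 in PBS. Of the 100 genes of astrocyte function, 56 were called with a higher and 4 with a lower ratio in PBS, with a median difference of 1.20. Pan-neuronal genes went the other way, 7 of 12 with a lower ratio in PBS (median -1.16), and so did mature oligodendrocyte genes, 12 of 13 (median -1.99). Mbp, for example, differed by -1.96 (95% interval -2.77 to -1.16, adjusted p = 0.00257). Microglial genes had a higher ratio in PBS in 9 of 11 (median 1.96). A change in either IP or input moves this ratio, and the PBS and KA libraries also came from different runs, so run and treatment cannot be told apart.

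**Figure D5:**
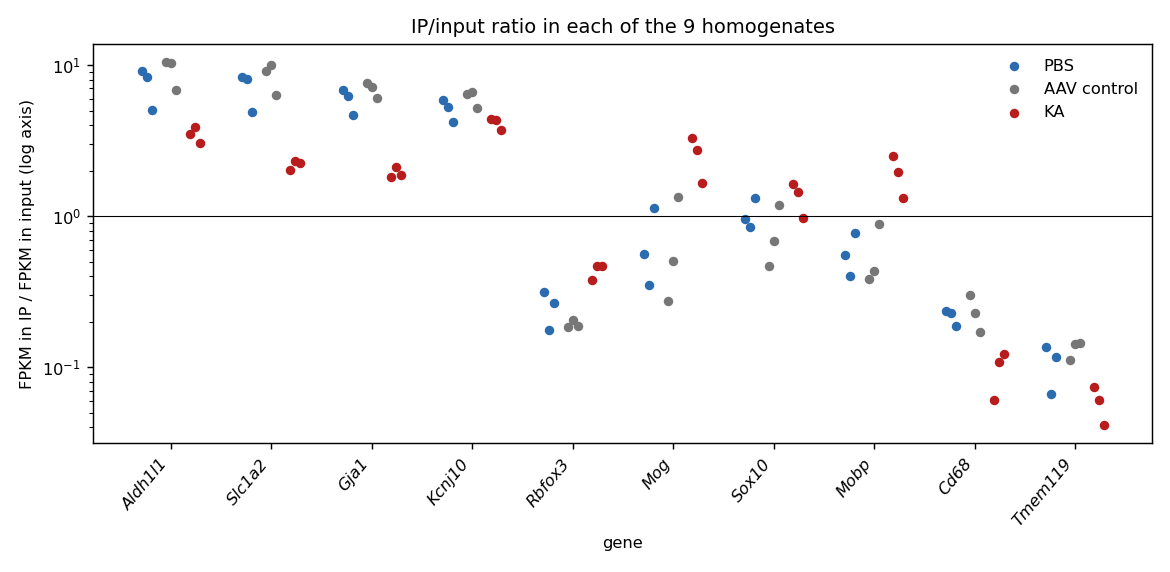
FPKM in IP divided by FPKM in input of the same homogenate, on a log axis, for 10 marker genes in the 3 homogenates of each group, blue for PBS, grey for AAV control and red for KA. The ratios of Aldh1l1, Slc1a2, Gja1 and Kcnj10 in PBS overlap those of the AAV control group, and those of Aldh1l1, Slc1a2 and Gja1 lie above all KA values.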

How the data were processed

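RNA of IP and input samples was sequenced after library preparation with the NEBNext Ultra II RNA kit. The genome used was mm10, and the submitters' processing notes name STAR, featureCounts and edgeR. For each library the authors deposited counts (whole numbers, not normalized) and FPKM values per gene symbol. The FPKM equalled count over library total and a fixed length per gene, with 30 of 16905 genes checked off by over 1%. The annotation release, the strand setting and the handling of multiply mapped reads were not given in the sources used here. Of the symbols, 53292 (96.4%) matched GENCODE vM21 (GRCm38), used for coordinates. Of 155 genes named by rule, 62 overlap another annotated gene, so their values can include its reads, and copies such as Rpl10a-ps1 can share reads with their parent gene.

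The counts were fitted by the quasi-likelihood method of edgeR 4.0.16 under R 4.3.3, with TMM scaling and no block, for genes with FPKM above 1 in all libraries compared. Called genes had a Benjamini-Hochberg adjusted p below 0.05 and differed by 1 or more on the log2 scale. SE is the log2 fold change over the square root of F. Differences of IP/input between groups were tested as an interaction over 12 libraries, with 95% intervals from the t distribution. Lists were described by counts and medians, with no set test. Alternatives used limma 3.58.1, DESeq2 1.42.0, other scalings and filters, and fits that left out each library. Untested genes were compared with scipy 1.17.1. On simulated data for the 10401 genes, with 200 changed, the PBS fit recovered 94% of genes changed by 1.5 on the log2 scale. It recovered 99% of those changed by 3, and called 4 unchanged genes. All other genes kept the mean of input there, so scaling under the large shift between IP and input seen here was not tested. For PBS against AAV control, the edgeR test recovered 57% and 96% and called 7 unchanged genes. For PBS against KA it recovered 85% and 98% and called 9.

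IP and input libraries of the same number came from 1 homogenate. Their residuals correlated at 0.301, 0.124 and 0.231, and those of libraries with unlike numbers at -0.231 to 0.0469. Samples were separate pools of mice. No 2 libraries agreed within counting noise. Depth limits genes near FPKM 1. The named genes were the study's markers, the 15 largest called log2 fold changes in each direction with all pairs alike, the 4 most abundant members of each list, Rpl10a, Gfap, Igfbp2, and the 10 called genes with the smallest p of each comparison between groups. The PBS AAV control comparison called none, so its genes, other list members and called members of the ribosomal and respiratory lists were named after their values were seen. Some genes that the rule names are not reported here. Comparison, lists and rules were chosen with earlier results of these data known.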

Additional observations from a re-analysis of the deposited data

Results flagged for a closer look

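The IP/input ratio differed between PBS and KA mice in 1289 genes by the interaction test of edgeR (adjusted p below 0.05 and at least 2-fold). Called genes with the smallest p are given as the log2 difference, PBS minus KA. Nnat, encoding neuronatin, differed by 3.00 (adjusted p = 2.33e-05), with a log2 IP/input of 0.15 in PBS and -2.77 in KA. Ctsz, a lysosomal protease, differed by 2.68 (1.39 in PBS and -1.22 in KA), Ptgs1, a cyclooxygenase, by 2.49 (0.42 and -1.99), Dhrs3, a retinaldehyde reductase, by 2.63 (1.99 and -0.56), Ppp1r1b by 2.66 (1.71 and -0.88) and the cystine transporter gene Slc7a11 by 1.66 (1.05 and -0.53). In the opposite direction, Ifitm10 differed by -3.33 (-1.51 in PBS and 1.90 in KA, adjusted p = 1.78e-06), Scg2, encoding secretogranin II, by -3.72 (-2.36 and 1.44) and Chgb, encoding chromogranin B, by -2.57 (-2.89 and -0.24).

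Of the 4 astrocyte markers, Slc1a2 differed by 1.71, Gja1 by 1.63 and Aldh1l1 by 1.08. The PBS libraries came from run 3 and the KA libraries from runs 1 and 2, and the part of the run in these values was not tested. Groups of 3 libraries are too small for a test of single outlying samples.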

How the results depend on the processing

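No list member or named gene that passed in the 6-library test had its direction reversed under any alternative. The balance of calls did turn. Library totals gave 1258 genes higher and 1496 lower, and limma on log2(FPKM + 1) gave 940 and 1270. Of 243 tested list members and named genes that passed in the 6-library test, 30 no longer passed in at least 1 alternative, none of them among the 4 astrocyte markers or the 30 genes with the largest fold changes. Of the 2818 genes called in PBS, 2773 were among the 2825 called with a replicate block (1520 higher and 1305 lower). Besides the genes named with their blocked p in the report (Mog, Mbp, mt-Co1, mt-Nd5, Vip, Fos), the paired fit took mt-Nd6, Eef2, Rps29 and Cox6a1 past an adjusted p of 0.05. It moved Rplp1, Grin2a, Grin2b, Cldn11 and Ugt8a from just under to just over 2-fold lower and Nfia, Sqle and Ndufc2 from just over to just under 2-fold higher, and it changed the call of no other listed or named gene. Leaving out 1 library or 1 pair gave 2749 to 3051 called genes, 1418 to 1636 higher and 1240 to 1424 lower. The count moved by more than 1.5 times with filterByExpr (5037 of 16038 genes, 2881 higher and 2156 lower) and with no filter (5736 of 37110, 3475 and 2261), where more genes were tested, and in 1 direction with limma on log2(FPKM + 1) (940 higher), where the cause was not tested. Where the mean FPKM had to exceed 1, 2255 genes were called higher and 1806 lower.

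For the difference between PBS and AAV control, DESeq2 called 5 genes (4 higher in PBS and 1 lower) and the replicate block 1 (1 higher), with 1141 genes at an unadjusted p below 0.05. Leaving out the AAV control pair of run 2, chosen after seeing the data, gave 1 (Trank1, higher, adjusted p = 0.0335) and 1548 genes at an unadjusted p below 0.05, and leaving out any 1 library gave 0 to 0. For PBS against KA, a mean FPKM above 1 gave 1960 called genes, 727 of them lower in PBS, with 13277 genes tested. There, leaving out 1 library gave 1074 to 1487 called, 630 to 912 higher and 423 to 575 lower, and the replicate block 1364. Of 1444 counts of called list members under alternatives, 1340 were within 1.5 times of the value reported. Single libraries moved the ependymal, mitochondrial, oligodendrocyte, ribosomal, respiratory chain, translation factor and immediate early lists, with examples given with each. Without PBS IP #1, 1 of 4 tested reactive genes, 2 of 101 genes of the astrocyte lists and 2 of 2 mural cell genes were called lower. Leaving out PBS IP #2, or PBS input #1, had 1 of 2 mural cell genes called higher.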

Other observations

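Genes called higher in IP were on the whole less abundant than those called lower, with a median of the mean FPKM over the 6 libraries of 7.06 against 12.9, and 6.22 for all genes tested. Their transcript length as implied by count, FPKM and library total had a median of 3552 bases in genes called higher, 3825 in genes called lower and 4052 in all tested. The cause of these differences was not tested.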
